A study of Rattus norvegicus with 20 samples.

Results

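Apolipoproteins are the protein parts of the particles that carry cholesterol and other lipids between cells, and lipoprotein lipase is the enzyme that frees fatty acids from the triglycerides inside such particles. In the brain these particles are made locally, mainly by glia. Described here are 4 rat genes of this group: Apoe, which encodes the main lipid carrier released by astrocytes, Clu, which encodes clusterin (apolipoprotein J), a secreted chaperone, Apod, which encodes a small lipid-binding protein of the lipocalin family, and Lpl, which encodes lipoprotein lipase. The members are all probe sets that the platform annotation gives to 1 of these symbols alone. They number 7 of the 8740 probe sets tested, with 2 for Apoe, 1 for Clu, 1 for Apod and 3 for Lpl, and 0 probe sets pair a member symbol with another.

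The study measured RNA of cultured rat progenitor cells on 20 Affymetrix arrays. High-density progenitors (HD) have 6 arrays from 3 cultures. Low-density CCg progenitors treated with FBS (fetal bovine serum) to derive astrocytes have 6 arrays from 4 cultures, and those treated with RA/Fsk (retinoic acid and forskolin) to derive neurons have 4 arrays from 4 cultures. Low-density CCg progenitors with no treatment named (LD) have 4 arrays from 3 cultures. Each culture is the log2 mean of the arrays whose labels carry the same number within a group. The labels give no tissue, strain, age, dose or time and do not expand CCg, which they name for all groups except HD, so density and CCg cannot be told apart between HD and LD. Whether different numbers mean separately grown cells is not stated, and the p-values measure only the spread between these samples.

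Arrays of 1 culture correlated at 0.951 to 0.975 over all probe sets. Arrays of different cultures in 1 group gave 0.9395 to 0.9794, a range that holds the former. After averaging into cultures, the mean correlation of a culture with the others of its group was 0.949 to 0.980. Of the marker lists, 4 of 8 measured astrocyte genes were higher and 0 lower in FBS than in LD, and 3 of 8 were higher and 0 lower in RA/Fsk than in LD. Gfap had no probe set of its own. The summed intensity of the astrocyte list was 3815 to 5008 in HD, 5998.5 to 8017 in FBS, 8005 to 9357 in RA/Fsk and 2030 to 2624 in LD. Aldoc alone averaged 4359 in RA/Fsk and 2586.5 in FBS. Of 7 measured neuron genes 0 were higher and 1, Gap43, was lower in RA/Fsk than in LD, and Tubb3 and Dcx had no probe set of their own, so the neuron markers measured here do not bear out the label of the RA/Fsk group. Of 10 microglia and macrophage genes, cell types rich in Apoe and Lpl, 0 passed in limma in any of the 6 comparisons (1 at an unadjusted p below 0.05, between RA/Fsk and LD), and their summed intensity was 342 to 434 in HD, 395 to 517 in FBS, 331 to 585 in RA/Fsk and 388.5 to 553 in LD. Several were dim, with group means of 3.59 to 7.9 for Itgam and 5.75 to 7.86 for Csf1r. Cd68 and Tyrobp had no probe set of their own. The lack of calls therefore does not show that the groups held these cells alike. Of 8 genes of fibroblasts and meningeal cells only Fn1 passed between FBS and LD. The summed intensity of that list was 2161 to 3684 in FBS, against 207 to 295 in LD, and Fn1 alone made up 1929 to 3414 of it in FBS, against 30.1 to 45.4 in LD. The part of any of these markers in the results was not tested. In these bulk samples, fewer cells of a type and less RNA per cell cannot be told apart.

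Apod carried the largest difference among the members, so the DNA just upstream of its start is shown. It lies at chr11:82935970-82936219 on the plus strand of GRCr8 (RefSeq), and the capitals mark the TATA box that begins 33 bases before the start.
Apod: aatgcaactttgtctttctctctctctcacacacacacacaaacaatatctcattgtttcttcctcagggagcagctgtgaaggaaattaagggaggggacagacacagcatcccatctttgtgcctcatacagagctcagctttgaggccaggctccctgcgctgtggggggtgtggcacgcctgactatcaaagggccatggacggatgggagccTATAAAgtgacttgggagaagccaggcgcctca
The letters TATAAA, on either strand, occur in 12.9% of 33469 rat promoter windows of the same 250 bases. Neither the cAMP response element TGACGTCA (1.59% of windows) nor the core AGGTCA of retinoid receptor sites (14.1%) occurs in the window, on either strand. These are matches of letters in 1 window and say nothing about binding.

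Apod was far lower in FBS than in every other group. Its product binds arachidonic acid and other small lipids, is made by astrocytes and oligodendrocytes, and is known from human fibroblasts to rise when cells stop dividing. The intensity of its probe set, in array units, was 148, 195.5, 133 and 137 in the 4 FBS cultures, against 779, 619 and 706 in the 3 LD cultures. The highest FBS culture was well under the lowest LD culture. On the scale log2(intensity + 4.99), Apod fell by 2.17 in FBS relative to LD, with a standard error (SE) of 0.19 and an adjusted p of 4.39e-07 in limma, a 4.49-fold lower level. A difference is called where the Benjamini-Hochberg adjusted p, taken over every probe set tested, is below 0.05. It was called under each of the 20 alternatives, with differences of -2.46 to -2.03. The array labelled 3r and the array labelled 3 of FBS culture 3 differed by 0.99 log2 for Apod, the widest gap between arrays of 1 culture for this gene. With array 3 alone the difference was -2.04 and with 3r alone -2.29.

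**Figure D1:**
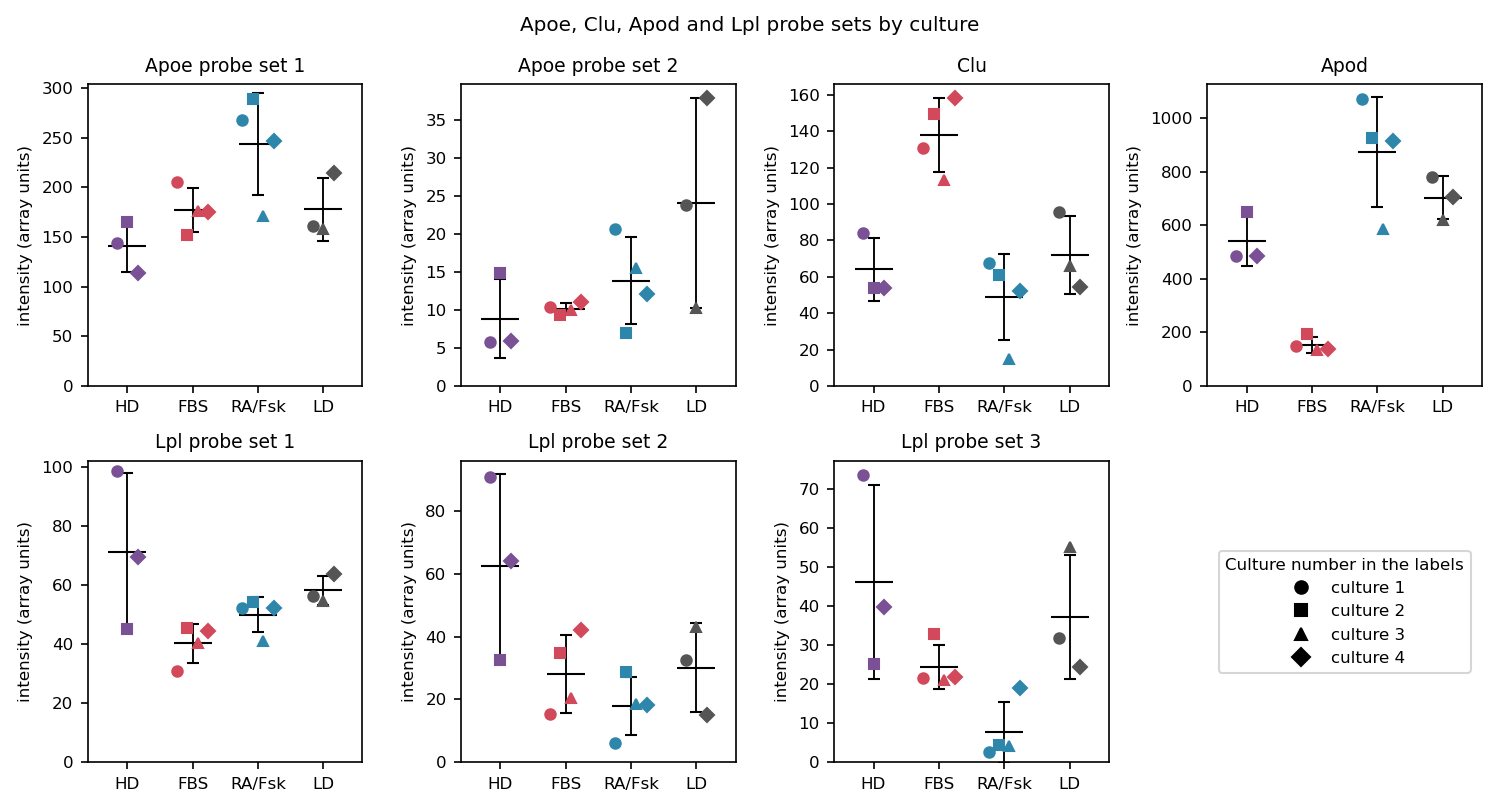
Intensity in array units of the 7 probe sets in each culture, by group, with symbols for the culture number. Black lines are the group mean and SD over cultures (3 HD, 4 FBS, 4 RA/Fsk, 3 LD). Apod lies at 133 to 195.5 in FBS and above 485 in all other cultures.

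Apod did not pass between RA/Fsk and LD. Its intensities were 1069, 925, 586 and 912 in the RA/Fsk cultures, so that 3 of the 4 lay above all LD cultures and culture 3 below them. The difference was 0.29 ± 0.19 (SE, adjusted p = 0.455 in limma), with a 95% interval of -0.13 to 0.70. Set against FBS instead, RA/Fsk was 2.45 ± 0.18 higher (adjusted p = 5.34e-08 in limma), a 5.48-fold difference with no overlap of cultures. That comparison is the direct test of the 2 treatments against each other, and it was called under all 21 alternatives (2.31 to 2.71).

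Markers of other cell types, counted in the same comparisons, did not all follow Apod. Of 7 measured genes of the oligodendrocyte lineage, 3 were higher and 0 lower in RA/Fsk than in FBS. Against LD, 2 were higher and 0 lower in RA/Fsk, and 1 was higher and 1, Pdgfra, lower in FBS. Pdgfra averaged 131 in FBS and 788 in LD, while Mbp averaged 247 in FBS and 85.5 in LD. The summed intensity of the 7 genes was 2212 to 2757 in HD, 1673 to 2114 in FBS, 2757 to 4753 in RA/Fsk and 2092 to 2839 in LD. Of 5 neural progenitor genes, 3 were lower in FBS than in LD and 0 higher, while their summed intensity of 6463 to 6883 in FBS lay within the 5183 to 7399 of LD. Vim alone made up 4712 to 4949 of that sum in FBS and 3225 to 4723 in LD, so the sum says little about the dimmer genes. Fabp7, for one, averaged 141 in FBS and 491 in LD. The part of these markers in the Apod differences was not tested.

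HD cultures stood between LD and FBS for Apod. They gave 487, 649 and 485, against the LD values of 619 to 779 given above, and the groups overlapped. The difference between HD and LD was -0.38 ± 0.21 (SE, adjusted p = 0.437 in limma). FBS was lower than HD, at -1.79 ± 0.19 (adjusted p = 3.93e-06 in limma), with no overlap. RA/Fsk was above HD by 0.67 ± 0.19 (adjusted p = 0.0393 in limma), although RA/Fsk culture 3 lay within the HD range, and this call ended under 9 of 20 alternatives, among them the omission of HD culture 1 (0.136), HD culture 4 (0.151), RA/Fsk culture 1 (0.0982), 2 (0.087) or 4 (0.0824). The order of the mean levels was RA/Fsk, LD, HD and FBS, in which the step from HD to FBS was the only one between neighbours that passed.

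Clu was highest in FBS, followed by LD, HD and RA/Fsk, and neighbours in this order did not pass. Clusterin is a secreted chaperone that travels on lipoprotein particles and is abundant in astrocytes. Its probe set gave 131, 149.6, 113 and 158.5 in FBS, against 95.6, 65.7 and 54.5 in LD. The groups did not overlap, yet the difference of 0.92 ± 0.37 did not pass (SE, adjusted p = 0.0822 in limma), and it passed under 3 of 20 alternatives. With the ratio of GAPDH control probes as a covariate it was 0.36 (adjusted p = 0.6). In RA/Fsk the intensities were 67.7, 60.9, 14.9 and 52.1, with culture 3 far below the rest. RA/Fsk and LD overlapped, at a difference of -0.64 ± 0.37 (adjusted p = 0.358 in limma), which was -0.21 without RA/Fsk culture 3.

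Between the treatments the Clu difference was called. RA/Fsk fell by 1.56 on the log2 scale relative to FBS, with an SE of 0.34 (adjusted p = 0.00348 in limma), and was 2.94-fold lower with no overlap of cultures. It remained called without RA/Fsk culture 3, at -1.13 (adjusted p = 0.0026). The ratio of the GAPDH control probes at the 5' and 3' ends, a sign of RNA quality, averaged -0.06 ± 0.13 log2 in HD, -0.06 ± 0.07 in FBS, -0.29 ± 0.17 in RA/Fsk and -0.33 ± 0.13 in LD (SD), and with it as a covariate the Clu call ended (-1.07, adjusted p = 0.0934). HD gave 83.9, 54.1 and 54.0 for Clu, against the LD range of 54.5 to 95.6, a difference of -0.15 ± 0.39 (adjusted p = 0.906). FBS was 2.10-fold above HD (1.07 ± 0.37, adjusted p = 0.0493 in limma), with no overlap, but this ended under 11 of 20 alternatives, among them the omission of any single FBS culture (0.0604 to 0.113), HD culture 2 (0.161) or HD culture 4 (0.159). Arrays of 1 culture differed by up to 1.43 log2 for Clu, in HD culture 4.

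**Figure D2:**
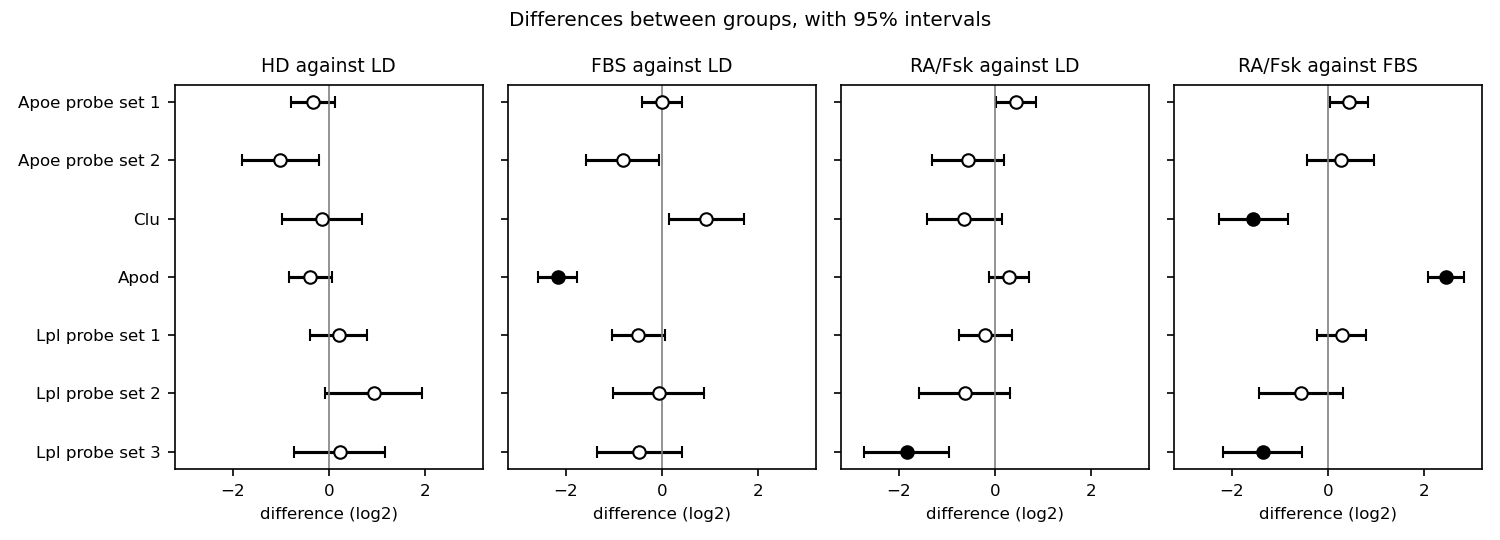
Difference in log2(intensity + 4.99) for each probe set in 4 comparisons, the group named first minus the second, with 95% intervals. Filled points passed at an adjusted p below 0.05. Apod and Clu lie on opposite sides of 0 between RA/Fsk and FBS.

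Apoe passed in 1 of its 6 comparisons on its brighter probe set. Its protein is the principal cholesterol carrier of the brain and a ligand of lipoprotein receptors. Apoe probe set 1, the brighter of its 2, gave 268, 289, 171 and 247 in RA/Fsk, against 161, 158 and 215 in LD. Again 3 of 4 RA/Fsk cultures lay above all LD cultures and culture 3 did not, and the difference of 0.43 ± 0.20 did not pass (SE, adjusted p = 0.224 in limma). FBS cultures, at 206, 152, 176 and 175, spanned nearly the same range as LD, with a difference of 0.00 ± 0.20 and a 95% interval of -0.42 to 0.42. The HD mean was the lowest, with cultures at 144, 165 and 114 that overlapped with those of FBS and LD, and it differed from LD by -0.33 ± 0.21 (adjusted p = 0.522).

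The one Apoe call lay between the ends of this order. RA/Fsk was 1.69-fold above HD, at 0.76 ± 0.20 (SE, adjusted p = 0.0217 in limma) with no overlap. It ended in a fit of those 2 groups alone (0.0789), and without HD culture 1 (0.0549), HD culture 4 (0.121) or RA/Fsk culture 2 (0.0632). RA/Fsk against FBS did not pass (0.43 ± 0.18, adjusted p = 0.128). Between neighbours in the order RA/Fsk, LD, FBS and HD, 0 differences passed in limma, 1 of them, RA/Fsk against LD, at an unadjusted p of 0.0447.

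Apoe probe set 2 was too dim to read a level from. It lay under the array's median on 20 of 20 arrays and gave 5.78 to 14.8 in HD, 9.3 to 11 in FBS, 7 to 20.6 in RA/Fsk and 10.3 to 37.9 in LD. Its differences from LD were -1.01 in HD, -0.82 in FBS and -0.56 in RA/Fsk, and 0 of its 6 comparisons passed in limma, although those of HD (0.0175) and FBS (0.0354) with LD had unadjusted p-values below 0.05. The FBS difference from LD passed under 3 of 18 alternatives, at -1.37 with the GAPDH covariate (adjusted p = 0.0323), -1.22 without LD culture 3 (0.0199) and -0.84 with each array as a sample (0.0432). For RA/Fsk against LD its sign was opposite to that of probe set 1.

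Lpl was weakly detected, and its 3 probe sets did not give the same order. Lipoprotein lipase acts at the surface of capillaries in muscle and fat and is also made by brain cells. Lpl probe set 1, the brightest, gave 31.1, 45.6, 40.5 and 44.5 in FBS and 52.4, 54.5, 41.3 and 52.3 in RA/Fsk, against 56.3, 54.6 and 64 in LD. All cultures of both treated groups were below all LD cultures, but neither difference passed, at -0.49 ± 0.26 for FBS (adjusted p = 0.203 in limma) and -0.20 ± 0.26 for RA/Fsk (adjusted p = 0.743). HD cultures ranged from 45.2 to 98.8 and overlapped with LD.

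Lpl probe set 3 was the only one of the 3 that passed against LD. It gave 2.7, 4.5, 4.3 and 19.1 in RA/Fsk, against 31.9, 55 and 24.5 in LD. Every RA/Fsk culture was below every LD culture, although 3 of the 4 RA/Fsk values lie under the offset of 4.99. The difference was -1.83 ± 0.42 (SE, adjusted p = 0.0103 in limma), and it depends on the offset, at -2.51 with an offset of 1% of the median intensity and -0.93 with 50%. The call ended without LD culture 3 (-1.55, adjusted p = 0.0634). RA/Fsk was also lower than FBS on this probe set, where FBS gave 21.2 to 32.9, at -1.36 ± 0.39 (adjusted p = 0.02), and lower than HD, where HD gave 25.1 to 73.4, at -2.06 ± 0.42 (adjusted p = 0.00424). The RA/Fsk against FBS call ended under 6 of 20 alternatives, among them an offset of 50% (0.0585) and the omission of FBS culture 2 (0.0663), RA/Fsk culture 1 (0.0617) or RA/Fsk culture 2 (0.054), and the one against HD under 0 of 19.

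In its RA/Fsk difference from LD, Lpl probe set 2 stood between the others. It gave 6.2, 28.7, 18.5 and 18.3 in RA/Fsk, against 32.4, 42.9 and 15 in LD, with overlap and a difference of -0.63 ± 0.45 (SE, adjusted p = 0.479 in limma). Its HD values of 90.7, 32.5 and 64.0 were all above the RA/Fsk values, and RA/Fsk fell by 1.56 relative to HD (SE 0.45, adjusted p = 0.0358 in limma). That call ended under 7 of 19 alternatives: in a fit of those 2 groups alone (0.0738), with array 3r alone for FBS culture 3 (0.0531), with the replicate block (0.055), and without HD culture 1 (0.162), HD culture 4 (0.12), RA/Fsk culture 1 (0.0898) or RA/Fsk culture 4 (0.0546). With an offset of 50% the difference was -0.996. Probe sets 2 and 3 were each under the array's median on 16 of 20 arrays, and probe set 1 on 9. RA/Fsk was the lowest group on probe sets 2 and 3 and FBS the lowest on probe set 1, while HD was the highest on all 3.

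Counted over the members, 0 of 7 probe sets passed between HD and LD in limma, where 0.858% of all probe sets did, and 1 had an unadjusted p below 0.05. Non-overlapping cultures of HD and LD were found for 0 of 7, against 19.7% of all. With FBS against LD 1 of 7 passed, against 25.5% of all, and with RA/Fsk against LD 1 of 7, against 8.25%. The cultures did not overlap for 3 of 7 between FBS and LD, against 35.4% of all, and for 2 of 7 between RA/Fsk and LD, against 15.5%. Outside LD these counts were 2 of 7 for FBS against HD (32.4% of all), 3 of 7 for RA/Fsk against HD (18.3%) and 3 of 7 for RA/Fsk against FBS (21.5%). Between RA/Fsk and FBS 3 of 7 passed, against 18.4%, between FBS and HD 2 of 7, against 21.0%, and between RA/Fsk and HD 4 of 7, against 10.2%. The count for RA/Fsk against HD was 1 without HD culture 1 or 4 and 2 without RA/Fsk culture 1, 2 or 4. That for FBS against HD was 1 without HD culture 4 or any FBS culture. Without LD culture 3 the counts against LD were 2 for FBS and 0 for RA/Fsk. With the GAPDH covariate that for RA/Fsk against FBS was 1. The 7 probe sets stand for only 4 genes, and the shares were not tested against the background. The comparisons against LD use the same 3 LD cultures.

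The pattern of Apod over the 14 cultures was most like that of 5 genes, found by Pearson correlation among 2988 genes and given as a description. Closest was Atp9a, a flippase of endosome membranes, at r = 0.971, and then came Syngr1, a synaptic vesicle protein, at 0.958. Lgr5, the R-spondin receptor known from stem cells, followed at 0.954, then Dynlt1, a dynein light chain, at 0.949 and Dtd1, an enzyme that removes D-amino acids from tRNA, at 0.944. Of these Lgr5 had the widest swing, at -2.16 in FBS and 1.05 in RA/Fsk relative to LD on the log2 scale, while Atp9a had -1.02 and 0.15. The 14 points share the split between FBS and the rest.

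**Figure D3:**
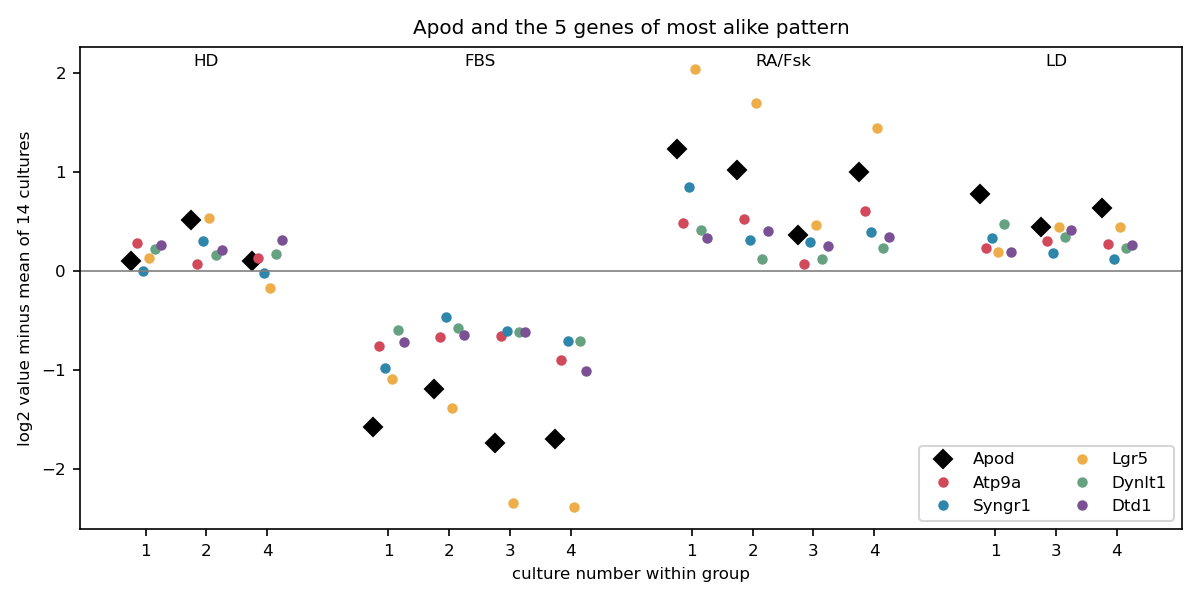
Log2 value minus the gene's own mean over 14 cultures for Apod (diamonds) and the 5 genes with the highest r (circles), by group and culture number. All 6 genes lie below 0 in the 4 FBS cultures, and Lgr5 spreads more widely than Apod.

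The closest genes to the others were less alike. Clu was nearest to Msx2, a homeobox factor of BMP signalling, at r = 0.911, followed by Tmem64 (0.887), Mcpt1l1 (0.886), Gnb4 (0.886) and Masp1 (0.880). Apoe probe set 1 was nearest to Helz at 0.833, Git1 at 0.830, Rbm39 at 0.812, Crabp2 at 0.810, which carries retinoic acid to its receptors, and Phldb1 at 0.803. Lpl probe set 1 was nearest to Ppp1cc (0.849), Calcrl (0.848), Ndufa6 (0.839), Gli4 (0.8294) and Gnai1 (0.821). Among the members themselves, Apod and Clu correlated at -0.65 over the 14 cultures and at 0.68 once group means were taken out. Both had their lowest RA/Fsk value in culture 3 (Apod 586, Clu 14.9), which weighs on the second r. Probe sets 1 and 2 of Apoe correlated at 0.32 over the 14 cultures.

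Beside the members, calls were found among genes that process lipoproteins. Over all probe sets, 13.2% were higher and 12.3% lower in FBS than in LD, and 4.71% were higher and 3.54% lower in RA/Fsk than in LD. These shares count every probe set, while the lists below count only the brightest of each gene, so they are not like for like. Of 10 other apolipoprotein and related genes with a probe set, Apoa1, Apob and Apoc1 among them, 0 passed in limma in any of the 6 comparisons, with 0 to 2 at an unadjusted p below 0.05. Their median difference was -0.05 in FBS and 0.17 in RA/Fsk relative to LD, against -0.09 and -0.05 for all probe sets. Apob, the scaffold protein of low-density lipoprotein, had the smallest adjusted p of them against LD, on the brightest of its 5 probe sets, at 0.208 for FBS.

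Of 7 lipase and lipid transfer genes, 3 were higher in FBS than in LD (Lcat, Lipa and Mgll) and 2 lower (Lipe and Cel), with a median of -0.43. Lcat, which esterifies cholesterol on lipoprotein particles, gave 1343, 1567, 1582 and 1271 in FBS, against 72.5, 31 and 104.5 in LD. The groups were more than 10-fold apart at their nearest cultures, and Lcat rose by 4.42 ± 0.38 log2 (SE, adjusted p = 2.21e-07 in limma), a 21.4-fold difference. Its level in RA/Fsk was 69.5 to 127, which did not pass against LD (0.67 ± 0.38, adjusted p = 0.339), and RA/Fsk differed from FBS by -3.75 ± 0.35 (adjusted p = 9.79e-07). Lipa, the lysosomal lipase that breaks down cholesterol esters taken up with lipoproteins, gave 401, 357, 370.2 and 437 in FBS, against 103, 86.9 and 102 in LD. It rose by 1.95 ± 0.16 (adjusted p = 1.51e-07 in limma), and its other 2 probe sets also rose.

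In RA/Fsk 2 of the 7 were higher than in LD, Pnlip and Mgll, and 0 were lower, with a median of 0.20. Pnlip, which encodes pancreatic lipase, gave 4306, 4259, 1181 and 3595 in RA/Fsk, against 552, 418 and 381 in LD. RA/Fsk culture 3 was the lowest of its group here too, yet all 4 cultures lay above LD, and Pnlip rose by 2.73 ± 0.37 (SE, adjusted p = 0.000167 in limma) on its brighter probe set and by 3.15 ± 0.45 on the other.

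**Figure D4:**
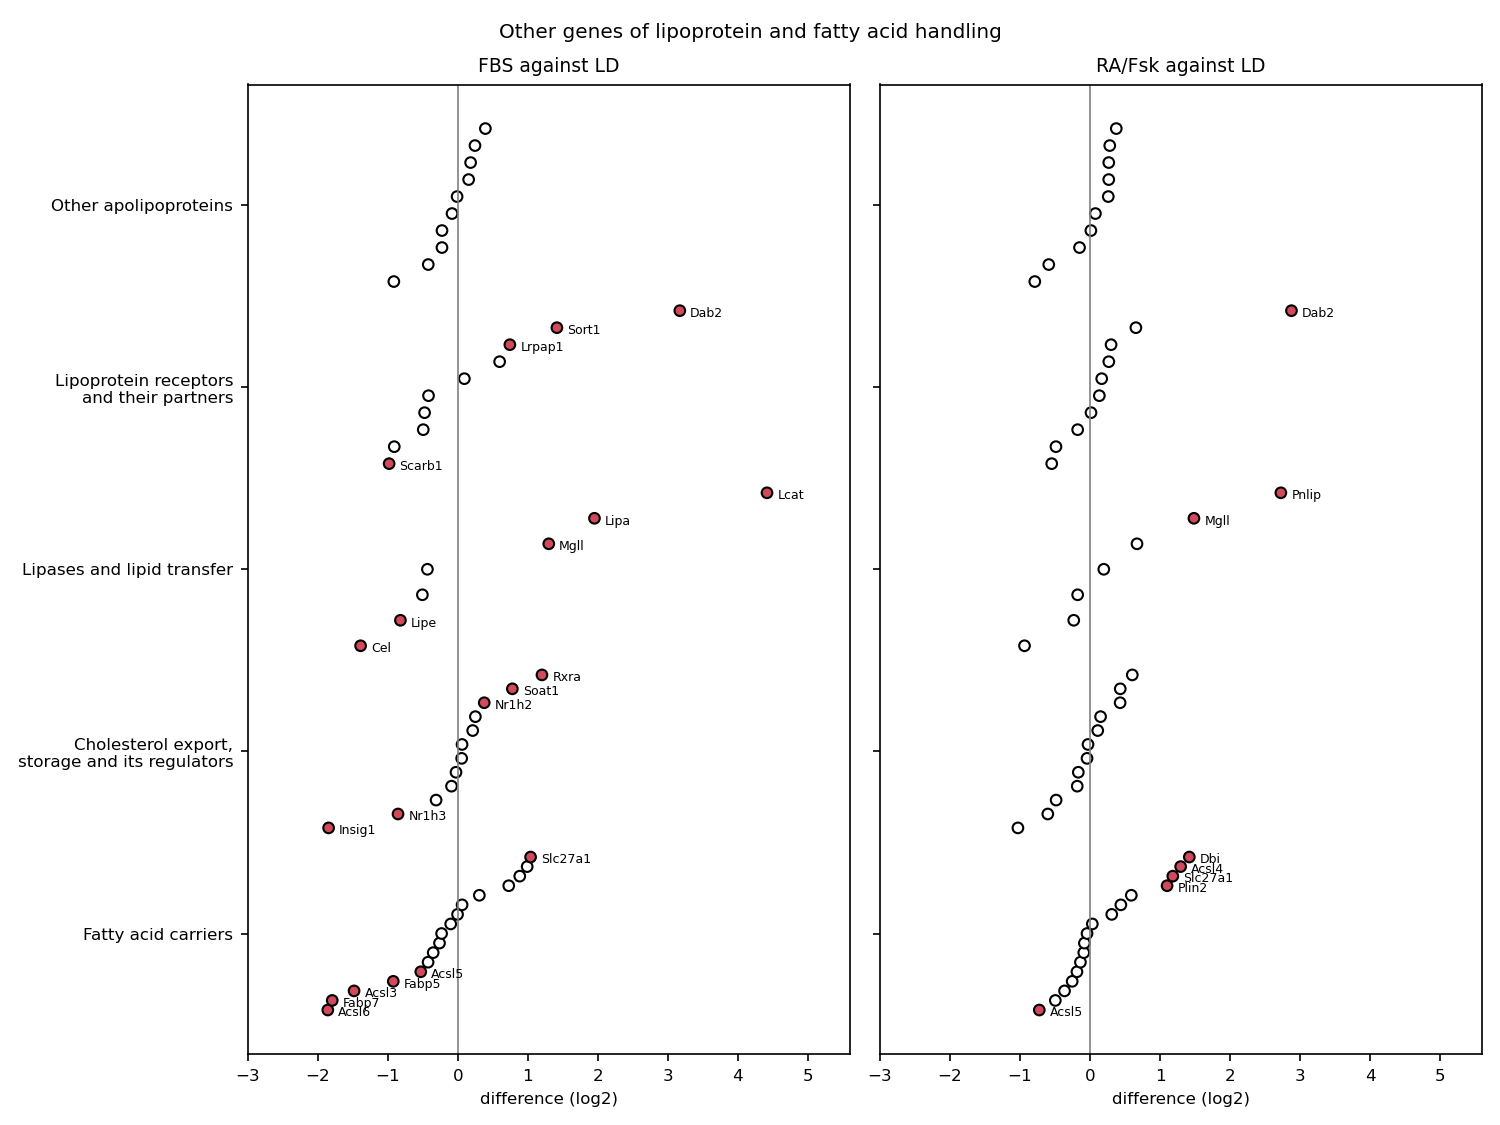
Difference from LD in log2(intensity + 4.99) for the measured genes of 5 lists, 1 point a gene, with FBS on the left and RA/Fsk on the right. Filled, named points passed at an adjusted p below 0.05. Lcat (4.42) and Dab2 (3.17) lie farthest right for FBS, and 0 of the other apolipoproteins passed in either panel.

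Among 10 lipoprotein receptor and partner genes with a probe set, FBS had 3 higher (Dab2, Lrpap1 and Sort1) and 1 lower (Scarb1) than LD, with a median of -0.16, and RA/Fsk had 1 higher (Dab2) and 0 lower, with a median of 0.15. Dab2, an adaptor that brings lipoprotein receptors into coated pits, gave 110.0, 88.1, 108 and 129 in FBS and 88.5, 139.6, 55.7 and 82.2 in RA/Fsk, against 8.25, 8.6 and 5.9 in LD. It rose by 3.17 ± 0.31 in FBS (adjusted p = 1.06e-06 in limma) and by 2.88 ± 0.31 in RA/Fsk (adjusted p = 1.73e-05). Its LD values are near the offset, and over the alternatives, which include other offsets, the differences were 2.03 to 3.76 in FBS and 1.79 to 3.45 in RA/Fsk. Scarb1, the receptor for high-density lipoprotein, gave 314, 288, 296 and 362 in FBS, against 690, 593 and 594 in LD, and fell by 0.98 in FBS (SE 0.16, adjusted p = 0.000223), with its other 2 probe sets also lower. Lrpap1, the chaperone of these receptors, rose by 0.74 ± 0.17 in FBS (adjusted p = 0.00356) on the brightest of 4 probe sets, which all passed.

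Of 12 genes of cholesterol export, storage and their regulators, FBS had 3 higher (Rxra, Soat1 and Nr1h2) and 2 lower (Insig1 and Nr1h3) than LD, with a median of 0.06, and RA/Fsk had 0 in either direction in limma (2 at an unadjusted p below 0.05), with a median of -0.04. Insig1, which holds back the sterol-sensing machinery and is itself a target of it, gave 262, 369, 366 and 206.5 in FBS, against 751, 1327 and 1208 in LD, and fell by 1.85 (SE 0.38, adjusted p = 0.00133 in limma), a call that ended with the GAPDH covariate (-1.17, adjusted p = 0.0759). In RA/Fsk it gave 292.5, 414 and 431 in cultures 1, 2 and 4 and 1378 in culture 3, with a difference of -1.03 ± 0.38 (adjusted p = 0.111). Without culture 3 that difference was -1.50 (adjusted p = 0.000713), and with the replicate block it was -1.01 (adjusted p = 0.0424). Rxra, the shared partner of retinoid and sterol receptors, rose by 1.20 ± 0.31 in FBS (adjusted p = 0.0076 in limma). This call ended with array 3r alone for FBS culture 3 (0.0521). The Rxra probe set was dim, at 36.0 to 47.8 in FBS and 11.7 to 16.9 in LD, under the median positive intensity of 49.9. Nr1h2, which encodes the sterol receptor LXR beta, rose by 0.38 ± 0.12 (adjusted p = 0.0235), on 1 of its 2 probe sets. That call ended with median centring (0.193) and without LD culture 1 (0.0667), LD culture 3 (0.0679) or FBS culture 2 (0.0616), 3 (0.0653) or 4 (0.0596), while the other probe set differed by -0.40 (adjusted p = 0.303).

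Of 17 fatty acid carrier and activation genes, FBS had 1 higher and 5 lower than LD, with a median of -0.23, and RA/Fsk had 4 higher and 1 lower, with a median of -0.04. Acsl3, which activates fatty acids for lipid droplets, gave 241, 184, 216 and 165 in FBS, against 539, 624 and 536.5 in LD, and fell by 1.48 (SE 0.15, adjusted p = 1.22e-06 in limma) on the brighter of its 2 probe sets. The dimmer one differed by -0.39 (adjusted p = 0.5). Fabp5, a cytosolic fatty acid carrier, fell by 0.92 in FBS (SE 0.14, adjusted p = 9.34e-05). Dbi, the acyl-CoA binding protein, gave 6053, 5157, 3548 and 4782 in RA/Fsk, against 1964, 1823 and 1605 in LD. It rose by 1.42 ± 0.17 (adjusted p = 6.54e-05) with no overlap, and differed by -0.10 ± 0.17 between FBS and LD (adjusted p = 0.735).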

How the data were processed

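The deposited table holds linear intensity values for 8799 probe sets on 20 arrays. Trimmed means of 200.3 to 200.5 on all arrays show a common scaling; how the authors summarised and scaled is not stated in the labels. Precision is limited by how few arrays there are. Values became log2(intensity + 4.99), the offset being 10% of the median positive intensity. After 59 control probe sets were left out, 14 cultures were fitted with limma 3.58.1 in R 4.3.3 (eBayes with an intensity trend, 10 residual degrees of freedom), and 6 comparisons were taken from that fit. It was tested on simulated data. A single symbol was given to 7006 probe sets, and each gene is led by its brightest probe set. Culture intensities are back-transformed log2 means. Named genes are 3 per list, by lowest adjusted p in any comparison with LD, and the 5 most correlated with each member; further genes listed beside small counts were picked with their values known. The members and lists were chosen with earlier results of these data known. Same-numbered RA/Fsk and LD cultures deviated together (r = 0.108 to 0.327), a pairing read from the data. In every other comparison some r was under the cut of 0.1, although single pairs exceeded it, up to 0.143 for culture 1 of HD and LD. Cultures of different numbers were not correlated in this way, so a link to the number is not shown. No label states such a pairing, so the reported tests are unpaired. The block on culture number, taken over all groups, is an alternative only. Alternatives changed averaging, scaling, offset, filter, trend, covariate, samples and block.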

Additional observations from a re-analysis of the deposited data

Results flagged for a closer look

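Of 14 sets of 4 cultures examined (7 probe sets in FBS and in RA/Fsk), 2 held a culture far from the others, where chance gives about 1 in 20 such sets. Lpl probe set 1 was 41.3 in RA/Fsk culture 3, against 52.3 to 54.5 in the other RA/Fsk cultures. Lpl probe set 3 was 32.9 in FBS culture 2, against 21.2 to 21.8 in the other FBS cultures. The 21.2 of FBS culture 3 is the mean of 35.3 on array 3 and 12 on array 3r. Array 3 alone lay above the flagged value, so this flag depends on the averaging. Array 3r had a median intensity of 43.7 and a GAPDH 5' to 3' ratio of -0.28 log2, against 56.9 and -0.04 on array 3.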

How the results depend on the processing

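Of 816 alternatives for the 42 member differences, 761 kept their side of the threshold, 39 lost a call, 16 gained one and 0 turned a call to the opposite direction. For named pathway genes these were 1708, 31, 19 and 0 of 1758. Some differences that were not called did change sign. Between FBS and LD, Apoe probe set 1 did so under 7 of 20 alternatives and Lpl probe set 2 under 6 of 19. The causes were not tested, except that fewer samples or fewer probe sets entered some fits. Apod between RA/Fsk and HD lost its call with array 3r alone, no intensity trend or only those 2 groups (0.67 each) and with quantile normalization (0.66), and ranged from 0.56 to 0.85 with 1 culture left out. Apoe probe set 1 lost it between RA/Fsk and HD with only those 2 groups (0.76; 0.62 to 0.92 with 1 culture left out), and gained one between RA/Fsk and FBS with quantile normalization (0.51; 0.34 to 0.59 with 1 left out, called without RA/Fsk culture 3). Clu between FBS and HD lost its call with array 3r alone (0.94), quantile normalization (0.88), median centring (0.88), an offset of 1% (1.13) and no trend (1.07), and ranged from 0.97 to 1.27 with 1 left out. Clu between FBS and LD gained a call with array 3 alone (1.04), an offset of 50% (0.76) and only those 2 groups (0.92), and between RA/Fsk and FBS lost it with the GAPDH covariate (-1.07). Lpl probe set 1 between FBS and HD gained a call with each array as a sample (-0.75), quantile normalization (-0.87), median centring (-0.89), and the dimmer 25% or 50% left out or no trend (-0.70 each), and ranged from -0.97 to -0.44 with 1 left out (called without HD culture 2). Probe sets passing between HD and LD numbered 75, and 23 to 465 under alternatives. Between RA/Fsk and LD they numbered 721 (362 with only those 2 groups), and between RA/Fsk and HD 889 (502 likewise, 559 without HD culture 4).

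With the replicate block Apod differed by -2.26 between FBS and LD, and the block ended 1 member call, Lpl probe set 2 between RA/Fsk and HD (-1.60, adjusted p = 0.055 in limma). Dim probe sets have no value under the filters that leave them out, and for Lpl probe sets 2 and 3 and Apoe probe set 2 signal close to background limits what can be measured.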

Other observations

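RA/Fsk culture 3 was the lowest of its group for Apoe probe set 1 (171), Clu (14.9), Apod (586) and Lpl probe set 1 (41.3), and also for Pnlip (1181), Dab2 (55.7), Dbi (3548) and Lcat (69.5), while it was the highest for Insig1 (1378), Acsl3 (780.4) and Scarb1 (533.5). These genes were picked after their values were seen. Over all probe sets its mean correlation with the other RA/Fsk cultures was 0.949, the same as that of culture 1 (0.949), against 0.959 and 0.958 for cultures 2 and 4. Its array had the lowest median intensity of the RA/Fsk arrays, 42.7 against 48.7 to 57.5.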
